A study of Mus musculus with 9 samples.

Results

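Livers of mice given a GP73 vector on a regular diet were compared with livers of mice fed a high-fat diet. GP73 is a Golgi membrane protein encoded by Golm1. Of the 9 arrays of the series, 6 entered the comparison, 3 labelled AAV-GP73 and 3 labelled AAV-V HFD. All mice were C57BL/6N males, and all had received an adeno-associated virus that the study describes as hepatocyte-specific and gave by tail vein. The samples are labelled 12 months. For the regular-diet livers the study counts this time from vector injection, so the label is not the animals' age. The AAV-GP73 mice received the GP73 vector and stayed on a regular diet. The AAV-V HFD mice received the empty vector and a high-fat diet, for a length that the study's results and methods state differently. The groups therefore differed in both the transgene and the diet. The remaining 3 arrays, AAV-V, came from mice with the empty vector on the regular diet and are given only as a description. The AAV-V HFD arrays lay on a slide of their own, so diet and slide cannot be told apart, and the transgene cannot be told apart from either. Whether an array held 1 animal or a pool, and when in the day or after which fast the livers were taken, was not given in the sources used here.

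The study uses both conditions as models of fatty liver, one through a vector for a secretory pathway protein and the other through dietary fat. A liver that receives more fatty acid than it exports can store it in lipid droplets, burn it in mitochondria and peroxisomes, or oxidize it at the far end of the chain through the Cyp4a enzymes. The nuclear receptor PPAR alpha switches on much of this oxidation, while SREBP-1c, encoded by Srebf1, and the glucose sensor ChREBP drive the making of new fat. Many liver enzymes also follow the day through the circadian clock, whose output includes the activator DBP and its competitor NFIL3 at the same DNA element, the D-box.

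Each array measured 1 RNA sample in 1 colour. Probes well above background by the scanner's own test made up 16.0% to 18.4% of the spots on the AAV-GP73 arrays, 13.8% to 16.7% on the AAV-V HFD arrays and 10.2% to 10.7% on the AAV-V arrays. The 2667 probes that every array detected had a median processed signal of 113 ± 14.1 in AAV-GP73, 105 ± 25.2 in AAV-V HFD and 35.7 ± 2.83 in AAV-V (SD, n = 3 each). AAV-V HFD replicate 3 was the dimmest of the 6 compared arrays at 76.4. Below, a level is the log2 processed signal after each array was shifted to a common 75th percentile, and "detected" means well above background. Across arrays of the same group the levels correlated at 0.959 to 0.981 in AAV-GP73 and at 0.938 to 0.958 in AAV-V HFD, against 0.918 to 0.945 between the groups. These correlations run over genes that share an array, and genes are not independent replicates. Golm1 itself was detected on 0 of the 9 arrays. Its level was 0.33, 0.42 and -0.17 in AAV-GP73 and 0.01, 0.29 and 1.43 in AAV-V HFD, so no extra Golm1 signal was seen on the AAV-GP73 arrays. Whether the probe lies in a part of the transcript that the vector carries is not given in the sources used here, and the group labels rest on the submitters' word. Hepatocyte markers were present throughout. All 12 were tested, 0 were called, and their summed level was 14.4 to 14.9 in AAV-GP73 and 13.8 to 14.6 in AAV-V HFD.

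**Figure D1:**
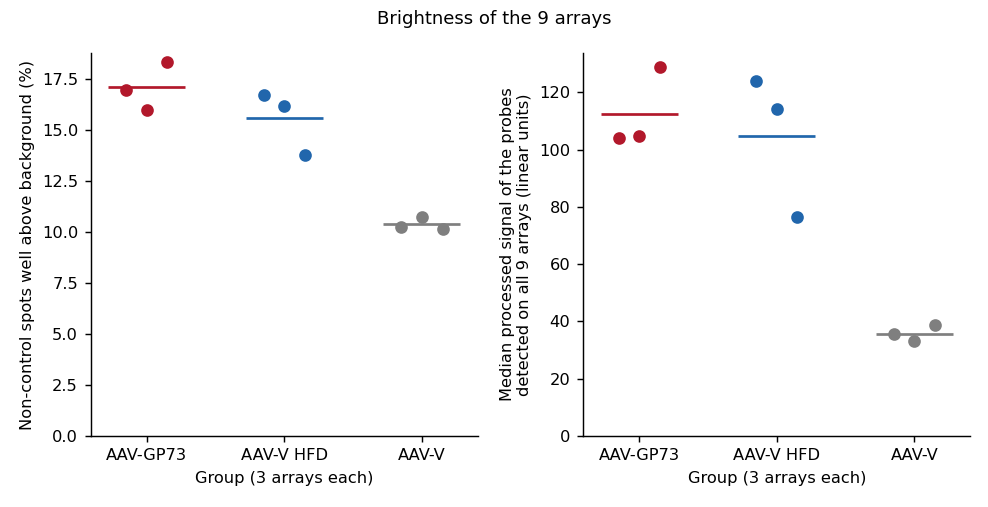
Brightness of the 9 arrays, with the percentage of spots well above background and the median processed signal of the probes detected on every array, 1 point per array and a line at each group mean. The AAV-GP73 and AAV-V HFD arrays lie in the same range, with AAV-V HFD replicate 3 lowest of them at 76.4, and the AAV-V arrays lie below both.

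Most of the genes tested did not pass the test between these livers, which does not show that they were equal. Of 5677 genes tested, 173 (3.05%) were called, meaning a fold change of at least 2 with an adjusted p under 0.05 in limma. In AAV-GP73, 138 of them (2.43% of the genes tested) were higher and 35 (0.617%) were lower. At an unadjusted p under 0.05 there were 1107. The median difference over all genes was 0.10 on the log2 scale, and 0.04 over the 4393 detected on all 6 arrays. Testing required detection on all 3 arrays of either group. A gene not detected on all 6 thus passed through 1 group, which favours genes high in that group and bears on the list medians below. The 3 AAV-GP73 levels lay entirely above the 3 AAV-V HFD levels for 881 genes (15.5%) and entirely below for 491 (8.65%). Calls gathered among dim genes, with 86 of the 173 among the 1893 dimmest genes. Of the higher genes, 65 were detected on all 6 arrays and 37 on no AAV-V HFD array, and of the lower genes 14 were detected on all 6 and 13 on no AAV-GP73 array. For a gene undetected throughout a group only a bound on the fold change is given, the bright group's mean against the mean, over the dim group's arrays, of the lowest detectable level or the gene's own level where that was higher. The bound reached 2-fold for 13 of the 37 higher genes and 10 of the 13 lower ones. The rest of these genes met the fold threshold only through values below detection. An adjusted p printed beside a bound tests the fitted difference, which uses the values below detection, and does not test the bound.

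The counts changed with the arrays in the fit. They fell to 61 higher and 16 lower without AAV-GP73 replicate 1, to 18 and 5 without replicate 2, and to 24 and 5 without replicate 3. They were 49 and 7 without AAV-V HFD replicate 1, 141 and 30 without replicate 2, and 138 and 22 without replicate 3. Each of these fits set 2 arrays against 3, which by itself makes a call harder to reach. A call lost in such a fit can reflect the smaller number, the array left out or both, and these were not told apart. In all 6 of these fits 13 higher and 3 lower genes stayed called, among them Ehhadh, Cyp4a14, Lpin2, Tm7sf2, Irs2, Nfil3, Rnf125 and Clpx (higher) and Dbp, Srebf1 and Thrsp (lower). Background correction by normexp with an offset gave 42 higher and 7 lower genes. Of the 53 called genes picked by the naming rules given below, not all of which appear in the text, it kept 11 calls. Among these were the calls of Ehhadh, Lpin2 and Dbp. With no filter on dim probes 26 of the 53 calls were lost. Scaling to the spike-in spots instead gave 476 higher and 23 lower, 95.4% higher against 79.8%, and moved the median of all genes to 0.45. The 14 lower genes detected on all 6 arrays also did not overlap between the groups before any scaling, nor did the 65 higher ones. These genes were picked by the call on the same arrays, and all 138 higher and 35 lower called genes lay apart after scaling. Their separation before scaling is therefore not independent support for the calls. The share over all genes before scaling was not counted.

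**Figure D2:**
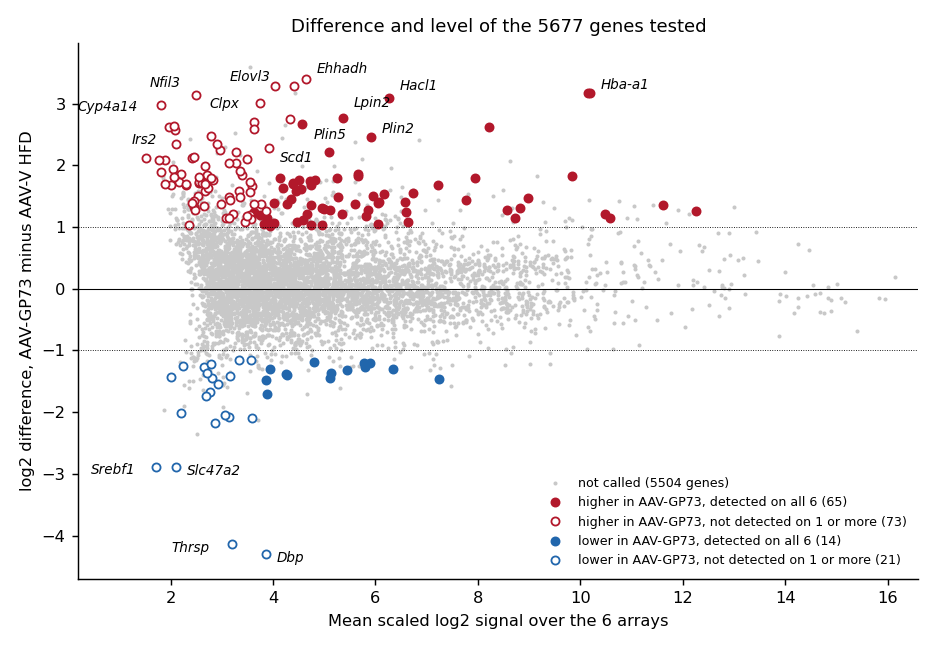
Difference between AAV-GP73 and AAV-V HFD (log2, vertical) against the mean level over the 6 arrays (log2, horizontal) for the 5677 genes tested, with the called genes coloured and a set of them named. Called genes above 0 (138) outnumber those below (35), and 86 of the 173 are among the 1893 dimmest genes.

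Enzymes of peroxisomal fatty acid oxidation were higher in AAV-GP73 or did not pass the test. Of 25 listed genes 20 were tested, 3 rose, 0 fell, and the median difference was 0.78, against 0.10 over all genes. Ehhadh, the bifunctional enzyme of peroxisomal beta-oxidation, had levels of 6.25, 6.19 and 6.60 in AAV-GP73 and 2.52, 3.22 and 3.10 in AAV-V HFD, where 2 of 3 arrays detected it. Every AAV-GP73 array lay above every AAV-V HFD array, a difference of 3.40 ± 0.27 (SE) or 10.6-fold (adjusted p = 0.00121). Hacl1, which shortens fatty acids by 1 carbon in alpha-oxidation, stood at 7.45, 7.93 and 8.03 against 4.00, 4.57 and 5.55. It was detected on all 6 arrays and rose by 3.10 ± 0.39, 8.56-fold (adjusted p = 0.00772). Crot, which hands peroxisomal products on as carnitine esters, stood at 6.78, 6.40 and 6.51 against 4.73, 4.55 and 4.96. The groups did not overlap and the difference was 1.82 ± 0.23, 3.53-fold (adjusted p = 0.00795). Hacl1 and Crot lost their calls without AAV-GP73 replicate 2 (adjusted p = 0.052 for each), while Ehhadh kept its call without any 1 array. With normexp correction Ehhadh differed by 1.34 and Hacl1 by 1.96, both still called, and Crot by 0.95 (adjusted p = 0.0575). Crot also missed with no filter on dim probes (adjusted p = 0.0585). The 3 genes that rose were detected on none of the AAV-V arrays.

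Among the omega-hydroxylases, which oxidize the methyl end of a fatty acid, 5 of 12 listed genes were tested, 2 rose and 0 fell. Their median difference was 1.52, or 0.90 with the undetected member at its bound. Of the 5, only 2 were detected on all 6 arrays, and the rest were tested through 1 group, which bears on this median. Cyp4a14 stood at 2.82, 3.47 and 3.58 in AAV-GP73 and at -0.04, 0.24 and 0.76 in AAV-V HFD. It was detected on the 3 AAV-GP73 arrays and on no other array, at least 1.86-fold higher than in AAV-V HFD (adjusted p = 0.00401). The lowest detected level on the AAV-V arrays was 3.77 to 3.94, above every AAV-GP73 level of Cyp4a14. An equal level on the AAV-V arrays would thus have gone undetected. Cyp4a10 stood at 3.73, 4.90 and 5.00 against 2.69, 2.56 and 2.09, a difference of 2.10 ± 0.37 (adjusted p = 0.0217). Of the AAV-V HFD arrays 1 detected it, and its call was lost without AAV-GP73 replicate 2 or 3 (adjusted p = 0.104 for each) or without AAV-V HFD replicate 1 (0.0568) or 3 (0.0631). The Cyp4a genes are close copies, so their probes may share signal. With normexp correction neither was called, Cyp4a14 at 0.52 (adjusted p = 0.909) and Cyp4a10 at 0.58 (adjusted p = 0.582). Cyp4a31 differed by 1.52 ± 0.55 (adjusted p = 0.176), and Cyp4a12b by 0.16.

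The list of mitochondrial fatty acid oxidation held no call, where 3.05% of all genes were called. Of 22 listed genes 18 were tested, 0 were called, and the median difference was 0.73, near the 0.78 of the peroxisomal list. Cpt1a, the gate for fatty acids into mitochondria, differed by 0.33, and Acadm, a medium-chain dehydrogenase, by 0.75. Acsl1, which activates fatty acids to their CoA esters, differed by 1.65 ± 0.48 (adjusted p = 0.113). Acot1, a thioesterase and not itself an oxidation enzyme, had the list's highest difference. It stood at 4.91, 6.37 and 6.77 against 2.92, 4.56 and 1.06, with AAV-V HFD replicate 2 close to the lowest AAV-GP73 array. Its difference of 3.17 ± 0.81 did not pass (adjusted p = 0.0751) and passed without that replicate (4.03, adjusted p = 0.0252), as it did with normexp correction (1.20, adjusted p = 0.0124) and spike-in scaling (3.52, adjusted p = 0.0307). Of the 6 ketone body synthesis genes 4 were tested and 0 called. The list's median was 0.09 and changed sign under quantile normalization.

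Other PPAR alpha targets gave 2 rises and 0 falls among 16 tested of 28, with a median of 0.93 (0.83 with undetected members at their bound). Slc25a42, a mitochondrial carrier of coenzyme A, stood at 3.96, 4.40 and 4.09 against 1.96, 2.78 and 1.59, a difference of 2.04 ± 0.33 (adjusted p = 0.0176). Gyk, glycerol kinase, was detected on no AAV-V HFD array and was at least 2.12-fold higher (adjusted p = 0.0176). Both calls were lost without any 1 of AAV-GP73 replicates 1, 2 and 3 and AAV-V HFD replicate 1 (adjusted p from 0.0524 to 0.0962), and both with normexp correction (0.48 and 0.38, adjusted p = 0.966 for each). Angptl4, an inhibitor of lipoprotein lipase, stood at 5.90, 6.59 and 6.08 against 4.26, 6.11 and 2.22. The groups overlapped (2.00 ± 0.80, adjusted p = 0.213), and without AAV-V HFD replicate 2 the difference was 2.95 (adjusted p = 0.0374). Ppara itself differed by 0.26, while Cd36, Pdk4, Vnn1 and Fgf21 did not meet the detection filter.

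The droplet coat proteins Plin2 and Plin5 were higher in AAV-GP73. Of 23 listed droplet and steatosis genes 7 were tested, 2 rose and 0 fell, with a median of 1.13. Only 4 of the 7 were detected on all 6 arrays, and the rest were tested through 1 group, which bears on this median. Plin5, which ties droplets to mitochondria, stood at 5.65, 5.48 and 6.58 against 2.51, 3.33 and 3.88, with all 6 arrays detecting it. The groups were apart by 2.66 ± 0.41, 6.34-fold (adjusted p = 0.0176). Plin2, the main coat protein of the liver droplet, stood at 7.22, 6.71 and 7.51 against 4.53, 5.89 and 3.63, and rose by 2.46 ± 0.51, 5.51-fold (adjusted p = 0.0385). Plin5 lost its call without AAV-GP73 replicate 2 (adjusted p = 0.0603) or 3 (0.0685), and Plin2 without any 1 array other than AAV-V HFD replicate 2 (0.0755 to 0.145). With normexp correction both stayed called, at 1.05 for Plin5 and 1.29 for Plin2, while the deposited log2 table (adjusted p = 0.052) and quantile normalization (0.0573) ended the Plin2 call. Pnpla2, the triglyceride lipase of the droplet, differed by 1.13 ± 0.26 (adjusted p = 0.0547). Plin3 was on the other side, at -0.49.

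**Figure D3:**
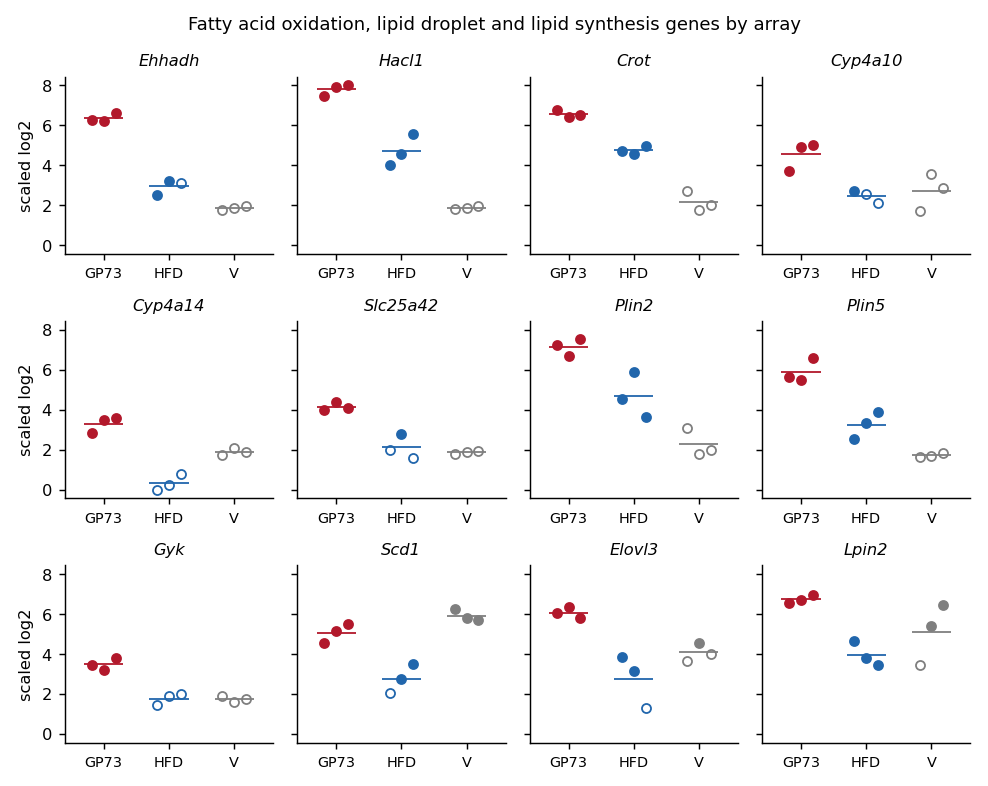
Levels (scaled log2 signal, vertical) on each of the 9 arrays for fatty acid oxidation and lipid droplet genes called higher in AAV-GP73, with filled points for arrays on which the probe was well above background, open points for the others and a line at each group mean. For Ehhadh the AAV-GP73 arrays lie at 6.19 to 6.60 and the AAV-V HFD arrays at 2.52 to 3.22.

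Genes of fat synthesis moved in both directions. Of 23 listed genes 14 were tested, 2 rose, 2 fell, and the median was 0.02, which turned negative under quantile normalization (-0.06). Srebf1, the transcription factor that drives fatty acid synthesis, stood at 0.03, 0.41 and 0.35 in AAV-GP73 and at 3.29, 3.08 and 3.09 in AAV-V HFD. No AAV-GP73 array and every AAV-V HFD array detected it, and the AAV-GP73 level was lower by at least 1.98-fold. The adjusted p of 0.00121 in limma belongs to the fitted difference of -2.89, not to that bound. Thrsp (Spot 14), a lipogenic protein induced with the synthesis enzymes, stood at 1.16, 1.65 and 0.59 against 6.15, 4.87 and 4.81. It too was detected on no AAV-GP73 array and was at least 8.63-fold lower (adjusted p = 0.00397), and a second Thrsp probe was also called, with a fitted difference of -4.25. Both genes kept their calls without any 1 array. Neither was called with normexp correction, where Srebf1 differed by -0.08 (adjusted p = 0.975) and Thrsp by -0.86 (adjusted p = 0.184). On the AAV-V arrays Thrsp stood at 7.36, 7.35 and 7.09, above both groups.

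The enzymes downstream did not all follow Srebf1 and Thrsp. Scd1, the desaturase that makes oleate, stood at 4.54, 5.15 and 5.48 in AAV-GP73 and at 2.06, 2.75 and 3.51 in AAV-V HFD, and rose by 2.28 ± 0.40, 4.87-fold (adjusted p = 0.0217). Elovl3, an elongase of very long chains, stood at 6.04, 6.33 and 5.78 against 3.87, 3.15 and 1.30, and rose by 3.28 ± 0.57 (adjusted p = 0.0217). On 2 of 3 AAV-V HFD arrays each was detected, and both calls were lost without AAV-GP73 replicate 2 or 3, Elovl3's also without replicate 1 and Scd1's without AAV-V HFD replicate 1 (adjusted p from 0.0572 to 0.104). With normexp correction Elovl3 stayed called at 1.06 and Scd1 did not, at 0.74 (adjusted p = 0.278). Fasn, the fatty acid synthase, was detected on no AAV-GP73 array, with levels of 2.40, 2.45 and 1.47 against 2.48, 3.49 and 3.24. Its bound, at least 1.77-fold lower, came with an adjusted p of 0.19, so it was not called, and its fitted difference of -0.97 turned to 0.04 with normexp background correction. Acly, which supplies cytosolic acetyl-CoA, differed by -0.03, and Mlxipl, which encodes ChREBP, by 0.04. AAV-V arrays stood above both groups for Scd1 (5.72 to 6.27) and Fasn (6.38 to 6.70), although these arrays were the dimmest and the part of brightness in these levels was not tested.

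Of 24 genes of triglyceride synthesis and lipoprotein assembly 15 were tested, 1 rose and 0 fell, with a median of 0.39. The riser was Lpin2, a phosphatidate phosphatase that makes diglyceride, at 6.55, 6.69 and 6.97 against 4.64, 3.82 and 3.47. That was 2.76 ± 0.32, 6.78-fold (adjusted p = 0.00679), and the call was kept without any 1 array and, at 1.31, with normexp correction. A second Lpin2 probe differed by 1.04 and was not called (adjusted p = 0.142), so the probes of this gene gave different sizes. The AAV-V arrays spread from 3.44 to 6.43 for Lpin2. Apob, the structural protein of very low density lipoprotein, differed by 0.50 and Mttp, which loads it with lipid, by -0.48. Dgat2, which makes triglyceride, differed by -0.96 ± 0.34 (adjusted p = 0.171) and Apoa4 by -1.25 ± 0.39 (adjusted p = 0.133).

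Of 24 clock genes with a probe, 6 were tested, 1 rose and 1 fell. Dbp, an output activator of the clock that binds D-box elements, stood at 2.15, 1.60 and 1.39 in AAV-GP73 and at 6.47, 6.49 and 5.09 in AAV-V HFD. It was detected on no AAV-GP73 array and on all AAV-V HFD arrays, at least 14.4-fold lower (adjusted p = 0.00349), and a second Dbp probe was called too at -5.29. Nfil3, the repressor that competes for the same element, stood at 3.85, 4.02 and 4.35 against 0.63, 1.04 and 1.12. It was detected on the AAV-GP73 arrays and on no other, at least 3.21-fold higher than in AAV-V HFD (adjusted p = 0.00121), and its second probe was called at 2.39. Its AAV-GP73 levels were close to the lowest detected level on the AAV-V arrays (3.77 to 3.94), so its lack of detection there says little. Both genes kept their calls without any 1 array. With normexp correction Dbp stayed called at -1.25 (adjusted p = 0.0134) and Nfil3 did not, at 0.51 (adjusted p = 0.878). Tef, an activator of the same family as Dbp, stood at 3.64, 4.92 and 4.76 against 5.44, 6.30 and 5.78. Its groups did not overlap, but the difference of -1.40 ± 0.38 did not pass (adjusted p = 0.092). Per1, a clock repressor, differed by -0.75 (adjusted p = 0.307). The core activators Arntl and Npas2, and Per2, Per3 and Cry1, were among 11 listed genes detected on none of the 6 arrays. The list's median of -0.17 became 0.18 under spike-in scaling and 0.12 with normexp correction. On the AAV-V arrays Dbp stood at 4.91, 3.38 and 4.34, between the groups.

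The upstream sequences of the pair that moved in opposite directions are shown because both proteins act on 1 element. Each run is the 250 bases before the RefSeq transcript start on GRCm38.p6, from chr7:45704997-45705246 on the plus strand for Dbp and chr13:52981040-52981289 on the minus strand for Nfil3. An E-box (CACGTG) and a D-box (TTATGNAA) were searched on both strands, and matches would stand in capitals.
Dbp: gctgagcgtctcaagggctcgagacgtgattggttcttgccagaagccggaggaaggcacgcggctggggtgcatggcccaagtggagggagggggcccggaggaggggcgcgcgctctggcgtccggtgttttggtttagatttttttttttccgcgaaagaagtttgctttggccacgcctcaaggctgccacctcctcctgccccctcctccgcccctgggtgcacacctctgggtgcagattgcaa
Nfil3: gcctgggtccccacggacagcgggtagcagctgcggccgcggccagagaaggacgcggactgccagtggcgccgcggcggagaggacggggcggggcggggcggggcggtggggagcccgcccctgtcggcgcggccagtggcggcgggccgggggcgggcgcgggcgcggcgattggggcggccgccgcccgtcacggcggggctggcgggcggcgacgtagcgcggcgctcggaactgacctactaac
Neither run holds either motif, which says only that these letters are not in this window. Of 32851 such windows in the RefSeq table, 6.02% hold the E-box and 3.07% the D-box.

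**Figure D4:**
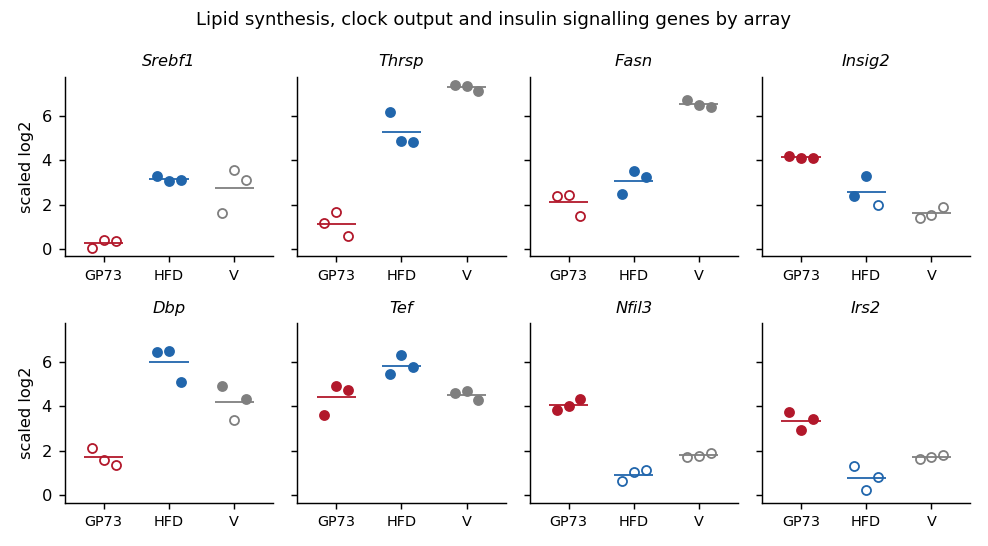
Levels (scaled log2 signal, vertical) on each of the 9 arrays for lipid synthesis, clock output and insulin signalling genes, with filled points for arrays on which the probe was well above background, open points for the others and a line at each group mean. Dbp, Thrsp and Srebf1 are open on every AAV-GP73 array and filled on every AAV-V HFD array, and Nfil3 shows the reverse.

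Among insulin, FoxO and glucose genes 17 of 28 were tested, 2 rose and 0 fell, with a median of 0.49. Irs2, an adaptor of the insulin receptor, stood at 3.74, 2.94 and 3.42 against 1.32, 0.26 and 0.81, detected on the AAV-GP73 arrays alone. Irs2 was at least 1.96-fold higher than in AAV-V HFD (adjusted p = 0.00795). The lowest detected level on the AAV-V arrays was 3.77 to 3.94, so an equal level there would have gone undetected. The call was kept without any 1 array and lost with normexp correction (0.35, adjusted p = 0.966). G6pc, the phosphatase that releases free glucose, stood at 5.13, 4.77 and 4.83 against 3.13, 2.99 and 0.88, and rose by 2.58 ± 0.54 (adjusted p = 0.0385). It lost the call without any 1 of AAV-GP73 replicates 1, 2 and 3 or AAV-V HFD replicate 1 (0.0568 to 0.137), with normexp correction (0.63, adjusted p = 0.473) and with the deposited log2 table (0.0915). Igfbp1, a secreted binding protein repressed by insulin, ranged from 3.52 to 6.92 in AAV-GP73 and from -0.04 to 4.36 in AAV-V HFD, an overlap that did not pass (3.59 ± 1.14, adjusted p = 0.136). Without AAV-V HFD replicate 3 it passed (4.89, adjusted p = 0.0444).

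Of 26 cholesterol genes with a probe 10 were tested, 2 rose and 0 fell, with a median of 0.40. Tm7sf2, a sterol reductase of the synthesis pathway, stood at 3.40, 3.18 and 3.57 against 1.21, 0.39 and 0.65, at least 1.99-fold higher (adjusted p = 0.00401). Insig2, which holds SREBP in the endoplasmic reticulum, stood at 4.18, 4.11 and 4.10 against 2.40, 3.29 and 1.96, a difference of 1.58 ± 0.34 (adjusted p = 0.0416). Tm7sf2 kept its call without any 1 array and Insig2 lost it without any 1 array other than AAV-V HFD replicate 2 (0.0824 to 0.162). With normexp correction neither was called, Tm7sf2 at 0.44 and Insig2 at 0.45 (adjusted p = 0.966 for each), and Insig2 also missed with the deposited log2 table (0.076) and quantile normalization (0.0675). Hmgcs1, an early synthesis enzyme, differed by 0.76. Bile acid genes gave 0 calls among 14 tested of 21, with a median of 0.34 (0.19 at the bound), and Cyp7a1, Cyp8b1 and Cyp27a1 were detected on none of the 6 arrays.

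In amino acid catabolism and the urea cycle, 1 of the 40 genes tested rose, 0 fell and the median was 0.78. Of the 40, 35 had a difference above 0, against 3287 of 5677 over all genes. The riser was Gldc, which cleaves glycine, at 4.09, 4.65 and 4.39 against 1.77, 1.39 and 3.32 (2.22 ± 0.46, adjusted p = 0.0385), and its call was lost without any 1 array other than AAV-V HFD replicate 3 (0.0701 to 0.164) and with normexp correction (0.55, adjusted p = 0.755). Asl, a urea cycle enzyme, stood at 4.85, 5.88 and 5.94 against 2.60, 2.81 and 5.29, with AAV-V HFD replicate 3 inside the AAV-GP73 range (adjusted p = 0.152). Got1, an aminotransferase, had the same order, with 3.22, 3.33 and 6.67 in AAV-V HFD (adjusted p = 0.165). The hepatocyte markers, whose part in this shift was not tested, had a median of 0.48 with 12 of 12 above 0.

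Of 19 male-biased liver genes tested 2 rose, Elovl3 and the cytochrome P450 gene Cyp2f2 (1.20 ± 0.22, adjusted p = 0.0249), and 0 fell, with a median of 0.70. Major urinary protein genes, near-identical copies whose probes may share signal, lay from 1.09 to 1.37 and were not called. Of 5 female-biased genes tested 1 rose, Cyp3a41a, with AAV-V HFD replicate 3 far down at 0.67 (3.28 ± 0.66, adjusted p = 0.0352). Cyp2f2 lost its call without any 1 array other than AAV-V HFD replicate 3 (0.0572 to 0.134), and Cyp3a41a without any 1 AAV-GP73 array (0.0733 to 0.144). Among 17 CAR and PXR targets, Ces2a, a carboxylesterase, rose (at least 1.14-fold, adjusted p = 0.00961) and 0 fell. Among 21 antioxidant genes, Ephx2, which hydrolyses epoxides of fatty acids, rose by 1.46 ± 0.30 (adjusted p = 0.0352). Ces2a lost its call without AAV-GP73 replicate 2 (0.0685), and Ephx2 without AAV-GP73 replicate 2 or 3 or AAV-V HFD replicate 1 or 3 (0.079 to 0.164). With normexp correction Cyp2f2 (0.66, adjusted p = 0.395) and Ces2a (0.35, adjusted p = 0.966) were not called. The deposited log2 table ended the calls of Cyp3a41a and Ephx2 (adjusted p = 0.0772 for each).

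Genes of protein and energy machinery gave few calls, as did all genes tested (3.05%). Over all genes 3287 of 5677 had a difference above 0. Of 34 proteasome genes tested 2 rose, the core subunit Psma4 (1.40 ± 0.21, 2.64-fold, adjusted p = 0.0167) and the regulatory subunit Psmd11 (at least 2.29-fold, adjusted p = 0.0179), with a list median of 0.24 and 30 of the 34 above 0. Psma4 stood at 7.30, 7.32 and 7.21 against 5.78, 5.86 and 5.99. Both calls were lost without AAV-GP73 replicate 2 or 3 or AAV-V HFD replicate 1 (0.0535 to 0.103), and with normexp correction Psma4 fell just short of the fold threshold at 0.97 and Psmd11 stood at 0.39 (adjusted p = 0.966). Counts of calls were 0 of 38 respiratory chain and ATP synthase genes (median 0.29, 33 above 0), 0 of 18 TCA cycle genes (0.09, 12 above 0, median negative under quantile normalization), 0 of 23 acute phase genes (0.30, from -1.69 to 1.75) and 0 of 4 fibrosis and matrix genes (0.51). Endoplasmic reticulum stress genes gave 0 calls among 12, a median of -0.14 that became 0.21 under spike-in scaling. The chaperone Hspa5 differed by 0.41 and Calr by -0.88.

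**Figure D5:**
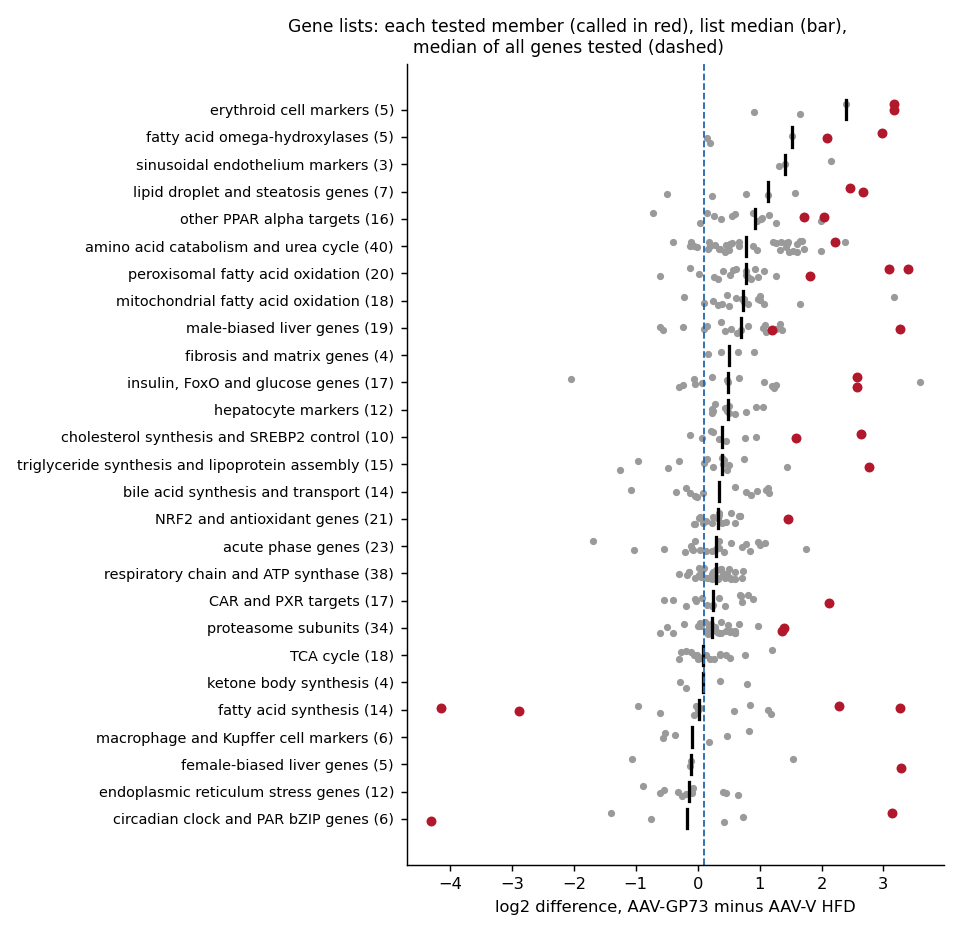
Differences between AAV-GP73 and AAV-V HFD (log2, horizontal) for the tested members of each gene list, 1 point per gene with called genes coloured and a line at each list's median. Medians run from -0.17 for the clock list to 1.52 for the omega-hydroxylases among the function lists, and the median of all genes is 0.10.

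Alpha-globin was higher on the AAV-GP73 arrays. Of 12 erythroid markers 5 were tested and 2 rose, the alpha-globin genes Hba-a1 and Hba-a2, near-identical copies that count as 1 signal. Hba-a1 stood at 13.0, 10.7 and 11.6 in AAV-GP73, at 8.16, 8.53 and 9.08 in AAV-V HFD and at 7.54, 7.38 and 8.83 in AAV-V. The AAV-GP73 arrays lay above the other 6, by 3.18 ± 0.53 or 9.04-fold against AAV-V HFD (adjusted p = 0.0209), a call lost without AAV-GP73 replicate 3 (0.0802) or AAV-V HFD replicate 1 (0.0647). Hbb-bt, a beta-globin gene, differed by 2.40 ± 0.61 (adjusted p = 0.0738). The summed level of the list was 11.7 to 14.1 in AAV-GP73 and 9.37 to 10.2 in AAV-V HFD, and the red cell membrane gene Epb4.2 was detected on none of the 6 arrays. In whole liver RNA, more cells of a type and more RNA per cell cannot be told apart, and the part of blood left in the tissue was not tested. Of the other cell types, sinusoidal endothelium had 3 of 12 markers tested and 0 called, with a median of 1.41. Of these 3, 0 were detected on all 6 arrays. Each was tested through 1 group only, so this median cannot be separated from the filter. The endothelial marker Clec4g, a lectin, did not pass (2.16 ± 0.60, adjusted p = 0.0981) and passed without AAV-V HFD replicate 2 (2.85, adjusted p = 0.0236). There were 0 calls among 4 stellate cell markers (median 0.86), 6 macrophage markers (-0.09, positive under spike-in scaling) and 4 neutrophil markers (-0.04, positive under spike-in scaling).

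Among the called genes with a plain gene name that were detected on all 6 arrays without overlap, the 12 largest rises were Hba-a1, Hba-a2, Hacl1, Lpin2, Plin5, Plin2 and Crot, described above, and Pnp, Bclaf1, Tubb2a, Ifnar1 and Sco2. Probes that carry only a transcript accession or a predicted gene's name were left out of this ranking, among them AK035396 (2.62) and Gm4952 (2.21). Pnp, which splits purine nucleosides, rose by 1.79 ± 0.34 (adjusted p = 0.0291), Bclaf1, a splicing-associated factor, by 1.76 ± 0.23 (0.00795) and Tubb2a, a tubulin, by 1.76 ± 0.27 (0.0167). Ifnar1, a subunit of the type I interferon receptor, stood at 5.21, 5.25 and 5.25 against 3.56, 3.43 and 3.59, and rose by 1.71 ± 0.21 (adjusted p = 0.0077). Each of these calls was lost without AAV-GP73 replicate 2 (0.0581 to 0.137), as was that of Sco2, a copper carrier of cytochrome oxidase assembly, at 1.70 ± 0.28 (adjusted p = 0.0194, then 0.103). Pnp, Tubb2a and Sco2 also lost it without AAV-GP73 replicate 3 and Pnp and Sco2 without AAV-V HFD replicate 1, and Pnp without AAV-GP73 replicate 1 or AAV-V HFD replicate 2 (0.0599 to 0.123). With normexp correction none of these 5 was called (0.57 to 0.79, adjusted p from 0.18 to 0.677). Of the plainly named genes undetected on all AAV-V HFD arrays, the mitochondrial unfoldase Clpx had the largest bound, at least 6.90-fold higher (adjusted p = 0.00513), at 4.92, 5.36 and 5.48 against 2.22, 1.64 and 2.85. It kept its call without any 1 array and lost it with normexp correction (0.83, adjusted p = 0.134). Rev3l, the catalytic subunit of a translesion polymerase, was at least 3.24-fold higher (adjusted p = 0.0217), a call lost without any 1 AAV-GP73 array or AAV-V HFD replicate 1 (0.0613 to 0.104).

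Falls measured on all 6 arrays were smaller, and 8 named genes met that rule. Arhgap28, a GTPase-activating protein, stood at 3.64, 3.44 and 3.64 in AAV-GP73 and at 4.94, 4.87 and 5.04 in AAV-V HFD. It fell by 1.38 ± 0.21 on the log2 scale (adjusted p = 0.0176). Vsig10, an immunoglobulin domain protein, stood at 5.99, 5.65 and 5.45 against 7.01, 6.83 and 7.17 (-1.31 ± 0.24, adjusted p = 0.0268). The others were Olfr570, Hmgn2, Adcyap1r1, Tuba1c, Cdh16 and Lrrc2, at -1.36 to -1.18. Each of the 8 lost its call when AAV-GP73 replicate 2 or 3 or AAV-V HFD replicate 1 was left out (0.0541 to 0.182), and 7 of them, all but Arhgap28, also without AAV-GP73 replicate 1 (0.0504 to 0.0823). Without AAV-V HFD replicate 3, 6 lost it, all but Arhgap28 and Olfr570 (0.0568 to 0.0715), and Hmgn2, Cdh16 and Lrrc2 lost it in all 6 fits. None of the 8 was called with normexp correction (-0.88 to -0.23, adjusted p from 0.0856 to 0.966). Among plainly named genes undetected on all AAV-GP73 arrays, Ggps1, which makes geranylgeranyl diphosphate, was at least 2.87-fold lower (adjusted p = 0.0217) and Slc47a2, a cation exporter, at least 2.62-fold lower (adjusted p = 0.0217). Both calls were lost without AAV-GP73 replicate 2 or 3 or AAV-V HFD replicate 1, and that of Ggps1 also without AAV-GP73 replicate 1 or AAV-V HFD replicate 2 (0.0507 to 0.108). Both were also lost with normexp correction (-0.11 and -0.15, adjusted p = 0.966 for each). Of the 13 called lower genes that all 9 arrays detected, the AAV-V mean was the highest of the 3 groups in 13, against 51.4% of the 2418 genes so detected. Of the 36 called higher genes so detected, the AAV-V mean was the lowest in 13 (36.1%), near the 39.8% of the 2418. It lay between the others in 23 and was the highest in 0, against 212 and 1244 of the 2418. Called genes were chosen by the difference between the other 2 groups, which bears on where the AAV-V mean can fall. Those AAV-V levels carry no test, and the AAV-V arrays were the dimmest of the series.

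The study's text picks out genes as unique to GP73, 1 of them given only as Insig and matched here to both Insig1 and Insig2. The study compared the GP73 livers with AAV-V livers, while the test here sets AAV-GP73 against AAV-V HFD. A call or its absence here is therefore not a test of the study's choice. Of the resulting 21 array genes 20 were tested, all but Insig1, and 10 rose, Insig2 among them, and 5 fell, with a median of 1.84 (0.89 at the bound). The study chose them on the same arrays, so their counts are not independent evidence of a difference. Rnf125, a ubiquitin ligase, stood at 5.73, 5.87 and 5.55 against 3.51, 3.10 and 2.27 (2.75 ± 0.33, adjusted p = 0.00679), and kept its call without any 1 array but not with normexp correction (0.90, adjusted p = 0.0721). Hes6, a helix-loop-helix factor, fell by 2.05 on the log2 scale (adjusted p = 0.0352) and Fat2, a cadherin, by 2.09 (adjusted p = 0.0245), calls lost without AAV-GP73 replicate 2 or 3 or AAV-V HFD replicate 1 or 3 (0.0561 to 0.112), and for Hes6 also without AAV-V HFD replicate 2 (0.0589). With normexp correction neither was called (-0.17 and -0.34, adjusted p = 0.966 for each). Those that did not pass included Ppm1k (0.20), Mcat (0.58), Gadd45g (2.66, adjusted p = 0.0637), Spag17os (-1.50, adjusted p = 0.0785) and Pstpip2 (-0.98).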

How the data were processed

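Mouse liver RNA was hybridised to 9 Agilent arrays in 1 colour, with probes of 60 bases. The deposited scanner files, from Feature Extraction 12.0.3.1 (10.7 in the submitters' notes), hold the processed signal intensity per spot. The authors also deposited a table of log2 values whose normalization is not given in the sources used here. Processed signals were put on a log2 scale and each array shifted by its 75th percentile over the 2667 probes detected on all 9 arrays, replicate spots were averaged, and the brightest probe stood for a gene. Of 37074 gene names, 5677 were detected on all 3 arrays of either group and tested with limma 3.58.1 (R 4.3.3) and Benjamini-Hochberg adjustment over all of them. The test was checked on simulated data. Precision is limited by 3 arrays a group, which may be technical replicates. Equal replicate numbers did not pair the arrays. The members and the 35 lists were chosen with earlier results of these data known. Genes to name were picked among called genes with a plain name, not an accession, Ensembl, predicted-gene or probe identifier. They were the 12 largest changes detected on all 6 arrays without overlap and the 6 largest bounds in each direction. Called or defining list members and genes in the study's text were added. Not all genes picked this way appear in the text. Of the called genes, 31 higher and 13 lower carry no plain gene name. Some genes are not reported here.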

Additional observations from a re-analysis of the deposited data

How the results depend on the processing

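Against 138 higher and 35 lower genes, the counts were 476 and 23 with spike-in scaling, 96 and 37 with quantile normalization, 42 and 7 with normexp background correction, 36 and 9 with no filter on dim probes, 70 and 14 over genes detected on all 6 arrays, 11 and 2 with the methods' t-test after Benjamini-Hochberg adjustment and 239 and 87 without it, and 85 and 13 with no scaling, an alternative chosen after seeing the data. Leaving out 1 array gave 18 to 141 higher and 5 to 30 lower genes. With the replicate number as a block 36 higher and 4 lower genes were called, but the numbers do not pair the arrays (correlations of -0.11 to 0.01 between equal numbers, and no array closest to its own number). Under every scaling, 67 higher and 11 lower genes remained called, and no named called gene changed sign under any alternative. Of the 53 called genes picked by the naming rules, normexp, whose offset shrinks dim differences, kept 11 calls and the block kept 23. Dim signal limits both directions, since 13 of the 35 falls and 37 of the 138 rises have only a bound.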
